A study of Mus musculus with 24 samples.

Results

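Astrocyte genes were followed through RiboTag pulldowns of mouse spinal cord. The set holds 9 genes of the 38924 listed: Gfap, Aqp4, Slc1a2, Slc1a3, Aldh1l1, Gja1, Sox9, Slc4a4 and Gpm6b. They were chosen by name as genes of astrocytes, and all 9 were found in all 24 libraries by their symbols. In the RiboTag method Cre recombinase turns on an HA-tagged form of a large-subunit ribosomal protein, Rpl22, in chosen cells, and an HA antibody then captures ribosomes with their mRNA. Cre was expressed here from the ChAT (choline acetyltransferase) locus, so the tagged cells are cholinergic cells, among them spinal motor neurons, and astrocytes are not meant to carry the tag. RNA that reaches the beads without the tag is background, and pulldowns from mice without Cre measure it in the same way.

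The study asked how a dominant mutation of Gars, the gene of glycyl-tRNA synthetase, changes ribosome-bound mRNA in these cells. There were 4 groups of 6 mice, all 8 weeks old, on the strain background B6.CgxB6.129 and all Rpl+/-. C201R mice with Cre were Rpl+/-;Chat+/-;C201R+/-, and wild-type mice with Cre were Rpl+/-;Chat+/-;C201R+/+. C201R mice without Cre were Rpl+/-;Chat+/+;C201R+/-, and wild-type mice without Cre were Rpl+/-;Chat+/+;C201R+/+. In these labels +/+ at C201R means that both Gars alleles are wild type, and +/+ at Chat that no Cre is present. No 2 libraries came from the same mouse, and mouse numbers name the samples below. Since the tag is read in every ChAT-Cre cell of a whole cord, the libraries hold a mixture of cholinergic cells.

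Astrocytes take up the glutamate that neurons release, buffer potassium and bicarbonate, move water through endfeet on blood vessels, and are coupled to each other by gap junctions. Slc1a2 (GLT-1) and Slc1a3 (GLAST) are their glutamate transporters, Aqp4 is the water channel of their endfeet, Slc4a4 is a sodium bicarbonate cotransporter and Gja1 encodes connexin 43. Gfap is their intermediate filament, Aldh1l1 an enzyme of folate metabolism, Sox9 a transcription factor of the astrocyte lineage and Gpm6b a membrane proteolipid. When the nervous system is injured or a motor neuron degenerates, astrocytes can become reactive, and a rise of Gfap is the classical sign of this.

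The promoters of 4 of these genes are given because these genes carry the comparisons described below. Gfap and Slc1a3 had the highest C201R over wild-type ratios among libraries without Cre, Slc1a2 had the highest level per transcript length in each group, and Gpm6b is compared below with its neuronal relative. Each sequence runs from 250 bases before to 50 bases after an annotated start, on the gene's own strand, from RefSeq on GRCm38.p6. The start used for Slc1a2 lies inside the annotated span of the gene (chr2:102658239-102790784) and is not its outermost start. Capitals mark every match, on either strand, to 4 short motifs: TATAAA (the TATA box), ACAAAG (a SOX site), TTGGC (part of an NFI site) and TTCNNNGAA (a STAT site). No match overlapped another.
Gfap, chr11:102897151-102897450, minus strand: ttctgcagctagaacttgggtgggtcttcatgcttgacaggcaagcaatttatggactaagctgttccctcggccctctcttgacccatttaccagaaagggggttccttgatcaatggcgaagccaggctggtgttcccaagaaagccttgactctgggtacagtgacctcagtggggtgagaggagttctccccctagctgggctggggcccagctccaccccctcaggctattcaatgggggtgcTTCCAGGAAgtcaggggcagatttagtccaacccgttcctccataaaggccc
Slc1a3, chr15:8710758-8711057, minus strand: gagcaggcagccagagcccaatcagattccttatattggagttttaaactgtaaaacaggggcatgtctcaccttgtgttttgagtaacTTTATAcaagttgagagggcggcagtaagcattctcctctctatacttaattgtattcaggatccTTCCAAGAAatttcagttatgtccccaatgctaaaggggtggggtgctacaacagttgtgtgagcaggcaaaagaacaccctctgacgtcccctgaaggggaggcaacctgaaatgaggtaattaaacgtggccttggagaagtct
Slc1a2, chr2:102706188-102706487, plus strand: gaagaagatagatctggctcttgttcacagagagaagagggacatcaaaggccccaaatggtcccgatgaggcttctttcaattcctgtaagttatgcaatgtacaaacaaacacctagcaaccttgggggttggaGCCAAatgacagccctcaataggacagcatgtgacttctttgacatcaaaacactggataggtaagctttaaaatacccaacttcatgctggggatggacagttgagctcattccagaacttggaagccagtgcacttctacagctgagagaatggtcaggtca
Gpm6b, chrX:166238693-166238992, plus strand: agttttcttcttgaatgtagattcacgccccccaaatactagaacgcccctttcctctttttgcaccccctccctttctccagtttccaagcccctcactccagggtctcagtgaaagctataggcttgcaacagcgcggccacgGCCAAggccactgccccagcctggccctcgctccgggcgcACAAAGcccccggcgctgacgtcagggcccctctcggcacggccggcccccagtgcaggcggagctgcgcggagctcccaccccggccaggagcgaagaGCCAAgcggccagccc
Gfap held 1 STAT match that began at position -2 relative to the start. Slc1a3 held a STAT match at -96 and a TATA match on the opposite strand at -161. Slc1a2 held 1 NFI match at -114, and Gpm6b held a SOX match at -65 and NFI matches at -105 and 35. Promoters of this kind were at hand for 7 of the 9 genes (8 promoters). The 2 promoters of Slc4a4 held 4 NFI matches in all, and both lie at starts inside the annotated span of the gene. Those of Aldh1l1 and Gja1 held none of the 4 motifs in these windows. Among 32841 promoters of the same length, 13.6% held the TATA motif, 18.7% the SOX motif, 46.7% the NFI motif and 8.3% the STAT motif. The matches are a description of letters and not of bound sites.

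Depth ranged from 8.899 to 28.295 M (mega) expected counts per library. Composition differed between libraries with and without Cre. Mitochondrial transcripts took 1.24% to 17.1% of counts with Cre and 35.2% to 55.5% without it, and the single gene model Gm26924 took 7.45% to 43.3% with Cre and 1.595% to 7.60% without it. Chat, the gene whose locus drives Cre, stood at 49.97 to 116 CPM (read counts scaled to library size) in C201R mice with Cre and at 0.871 to 3.33 CPM in C201R mice without it. Wild-type Chat levels were 51.1 to 62.0 CPM with Cre and 1.602 to 8.91 CPM without it. The gene level of Gars cannot check a point mutation and was not used for that. Within the groups with Cre, C201R mouse 14003-1 and wild-type mouse 14701-9 had the highest mitochondrial shares, 15.8% and 17.1%, and results that move without them are given with and without them. The labels number the libraries in 2 runs, called library series 1 (7 libraries) and series 2 (17 libraries) here. Series 1 holds 3 of 6 C201R and 2 of 6 wild-type mice with Cre, and 1 of 6 C201R and 1 of 6 wild-type mice without Cre. What the series stand for is not stated.

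All 9 genes were lower with Cre in both genotypes. edgeR called 9 of 9 lower (Benjamini-Hochberg adjusted p under 0.05 over all genes) in C201R mice, where 26.3% of 14335 tested genes were called lower, and 9 of 9 in wild-type mice, where 32.8% of 14264 were. With both genotypes in 1 fit, 9 of 9 were lower beside 37.2% of 16109 genes. The median log2 difference of the 9 genes was -3.27 in C201R mice, against 0.07 over all genes, and -3.16 in wild-type mice, against -0.10 over all genes. Summed over the 9 genes, the level was 160.5 to 278 CPM in C201R mice with Cre and 2121 to 2905 CPM in C201R mice without Cre. The wild-type sum was 198 to 408 CPM with Cre and 2216 to 2712 CPM without Cre. In pulldowns of a mixed tissue, fewer cells of a type on the beads and less RNA per cell cannot be told apart, and a lower share can also follow from more RNA of other genes.

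**Figure D1:**
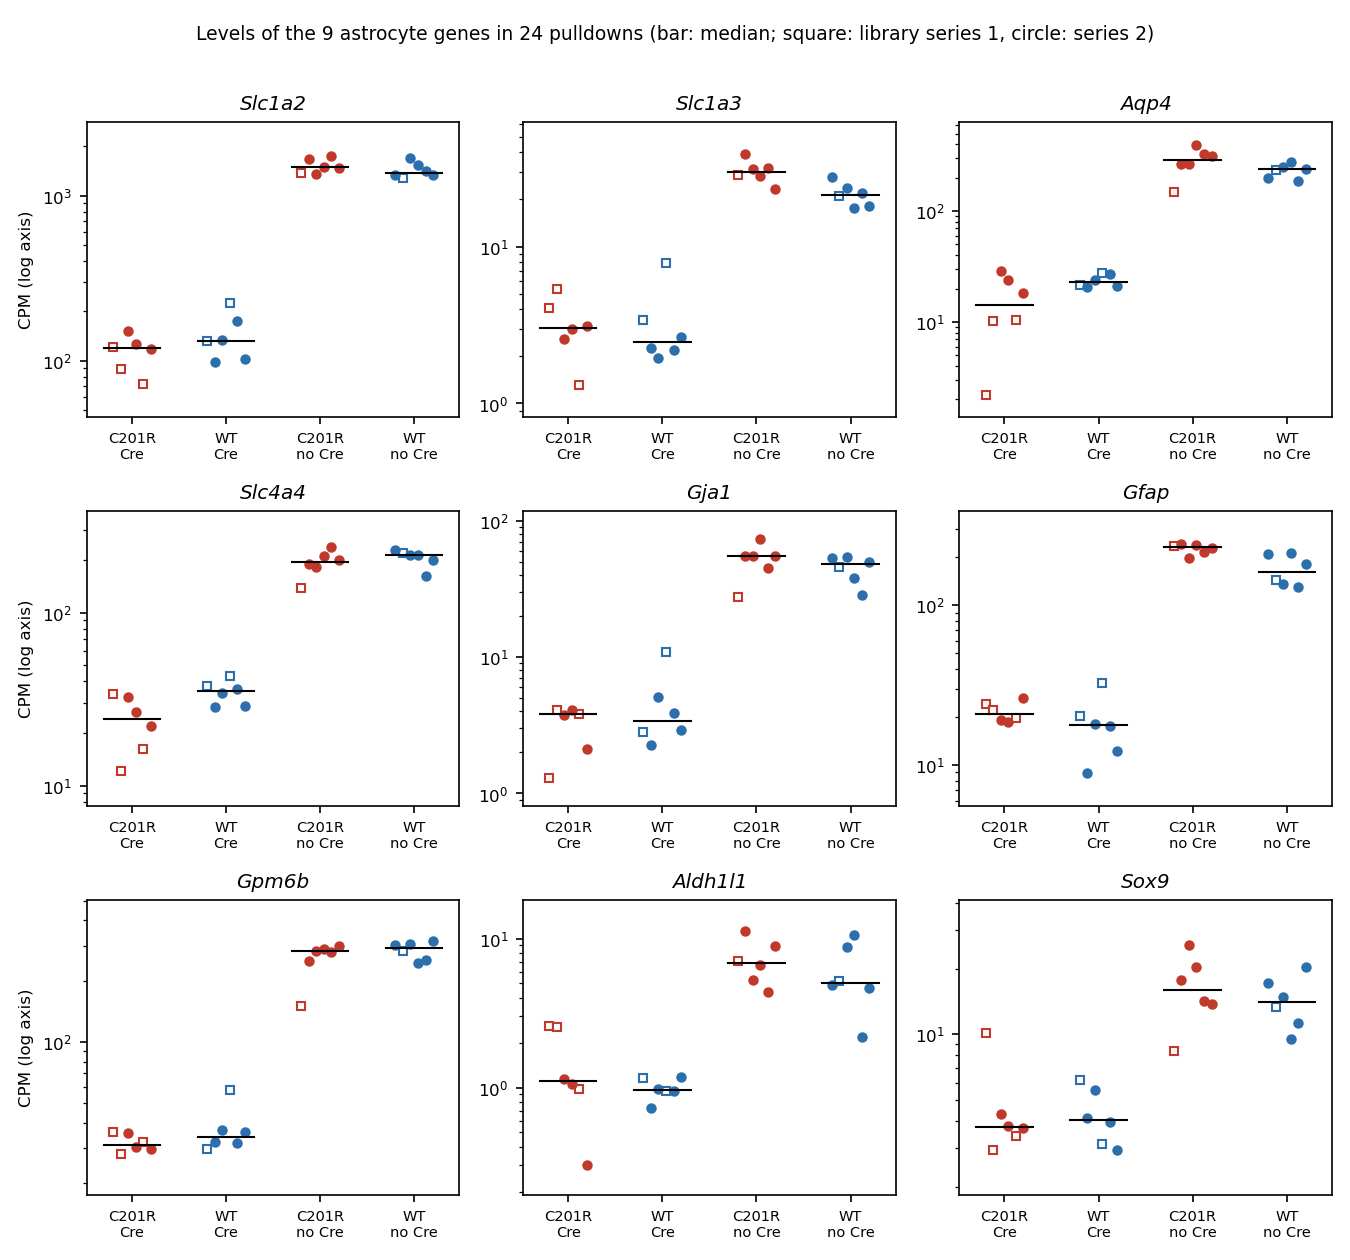
Scaled level (CPM, log axis) of each of the 9 astrocyte genes in each of the 24 libraries, by group, with C201R left of wild type and the groups with Cre left of those without. Points are single mice and bars are group medians. The groups with Cre lie below those without it for each gene, apart from the Sox9 value of 10.15 CPM in C201R mouse 14003-1, which lies within the range without Cre.

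Both glutamate transporters fell with Cre. Slc1a2 stood at 72.5, 120 and 151 CPM (lowest, median and highest of 6 libraries) in C201R mice with Cre, and at 1363, 1490.0 and 1748 CPM in C201R mice without Cre. Wild-type Slc1a2 levels were 98.3, 132 and 224 CPM with Cre and 1277, 1383 and 1705 CPM without Cre. Every library with Cre lay below every library without it. Slc1a2 fell by 3.62 ± 0.19 on the log2 scale (SE) in C201R mice (12.3 times lower, edgeR adjusted p = 4.23e-10) and by 3.56 ± 0.22 in wild-type mice (11.8 times lower, adjusted p = 8.06e-09). Slc1a3 stood at 1.31, 3.05 and 5.33 CPM in C201R mice with Cre, and at 23.3, 29.99 and 38.7 CPM without Cre. Wild-type Slc1a3 levels were 1.94, 2.46 and 7.90 CPM with Cre and 17.7, 21.4 and 27.8 CPM without Cre. Neither genotype showed overlap, although the wild-type maximum with Cre, in mouse 14701-9, stood well above the next highest library (3.38 CPM). Slc1a3 fell by 3.27 ± 0.33 log2 units in C201R mice (9.63 times lower, edgeR adjusted p = 2.88e-07) and by 3.16 ± 0.31 in wild-type mice (8.93 times lower, adjusted p = 4.43e-07).

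The endfoot water channel Aqp4 had the widest spread among C201R mice with Cre. It stood at 2.21, 14.4 and 28.6 CPM there, and at 149, 291 and 395 CPM in C201R mice without Cre. Wild-type Aqp4 levels were 20.8, 22.8 and 27.4 CPM with Cre and 185, 239 and 280.0 CPM without Cre. The lowest value, in mouse 14003-1, rests on 12 expected counts. Aqp4 fell by 3.85 ± 0.29 log2 units in C201R mice (14.4 times lower, edgeR adjusted p = 1.25e-08) and by 3.47 ± 0.15 in wild-type mice (11.1 times lower, adjusted p = 6.74e-10). Slc4a4, the bicarbonate cotransporter, stood at 12.2, 24.3 and 33.6 CPM in C201R mice with Cre, and at 138, 197 and 241 CPM without Cre. Wild-type Slc4a4 levels were 28.27, 35.3 and 43.1 CPM with Cre and 162, 216 and 230.0 CPM without Cre. The groups did not overlap in either genotype. Slc4a4 fell by 2.84 ± 0.25 log2 units in C201R mice (7.18 times lower, edgeR adjusted p = 6.44e-08) and by 2.79 ± 0.14 in wild-type mice (6.94 times lower, adjusted p = 4.4e-09).

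Gja1, which encodes the connexin that couples astrocytes, stood at 1.29, 3.80 and 4.08 CPM in C201R mice with Cre, and at 27.6, 54.7 and 73.3 CPM without Cre. Wild-type Gja1 levels were 2.26, 3.41 and 10.95 CPM with Cre and 28.4, 48.0 and 54.2 CPM without Cre. Again the highest library with Cre was that of wild-type mouse 14701-9, and again no value with Cre reached the range without it. Gja1 fell by 3.80 ± 0.31 log2 units in C201R mice (13.9 times lower, edgeR adjusted p = 3.88e-08) and by 3.63 ± 0.34 in wild-type mice (12.4 times lower, adjusted p = 3.09e-07). Gfap, the astrocyte filament gene, stood at 18.5, 21.01 and 26.1 CPM in C201R mice with Cre, and at 196, 233 and 242 CPM without Cre. Wild-type Gfap levels were 8.87, 17.9 and 32.8 CPM with Cre and 129, 162 and 212 CPM without Cre. C201R libraries were tightly grouped with Cre, and wild-type libraries with Cre spread more widely around a similar median. Gfap fell by 3.37 ± 0.17 log2 units in C201R mice (10.4 times lower, edgeR adjusted p = 4.23e-10) and by 3.52 ± 0.26 in wild-type mice (11.5 times lower, adjusted p = 4.19e-08).

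Gpm6b, a proteolipid that oligodendrocytes and some neurons express as well, stood at 28.0, 31.2 and 35.8 CPM in C201R mice with Cre, and at 152, 281 and 298 CPM without Cre. Wild-type Gpm6b levels were 29.6, 34.0 and 57.7 CPM with Cre and 246, 293 and 315 CPM without Cre. Its groups stood apart in both genotypes. Gpm6b fell by 2.87 ± 0.20 log2 units in C201R mice (7.31 times lower, edgeR adjusted p = 7.81e-09) and by 3.15 ± 0.17 in wild-type mice (8.895 times lower, adjusted p = 4.4e-09). The folate enzyme gene Aldh1l1 stood at 0.304, 1.102 and 2.58 CPM in C201R mice with Cre, and at 4.36, 6.88 and 11.3 CPM without Cre. Wild-type Aldh1l1 levels were 0.730, 0.962 and 1.17 CPM with Cre and 2.18, 5.04 and 10.5 CPM without Cre. With as few as 7 expected counts in a library with Cre, its values carry the largest standard errors of the 9 genes. Aldh1l1 fell by 2.74 ± 0.52 log2 units in C201R mice (6.67 times lower, edgeR adjusted p = 0.000262) and by 2.76 ± 0.42 in wild-type mice (6.78 times lower, adjusted p = 3.74e-05).

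The transcription factor gene Sox9 had the smallest difference of the 9 genes in both genotypes. It stood at 2.96, 3.76 and 10.15 CPM in C201R mice with Cre, and at 8.36, 16.0 and 25.8 CPM without Cre. Wild-type Sox9 levels were 2.93, 4.05 and 6.19 CPM with Cre and 9.49, 14.02 and 20.3 CPM without Cre. The C201R groups overlapped through 1 library, since mouse 14003-1 with Cre lay above the lowest library without Cre. Sox9 fell by 1.80 ± 0.42 log2 units in C201R mice (3.48 times lower, edgeR adjusted p = 0.00153) and by 1.90 ± 0.28 in wild-type mice (3.73 times lower, adjusted p = 3.26e-05).

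Counted by ranges, 8 of 9 genes had no overlap between C201R mice with and without Cre (all but Sox9), beside 12.8% of 17259 genes with a mean count of at least 5 that lay wholly lower with Cre. In wild-type mice 9 of 9 genes had no overlap, beside 13%. The size of the difference depends on the scaling. With library totals in place of TMM factors (the trimmed mean scaling of edgeR), the median of all genes moved up by 0.58 in C201R and by 0.94 in wild-type mice, and the log2 differences ran from -3.25 (Aqp4) to -1.24 (Sox9) in C201R mice and from -2.76 (Gja1) to -0.96 (Sox9) in wild-type mice, with all 9 genes still called lower in both.

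**Figure D2:**
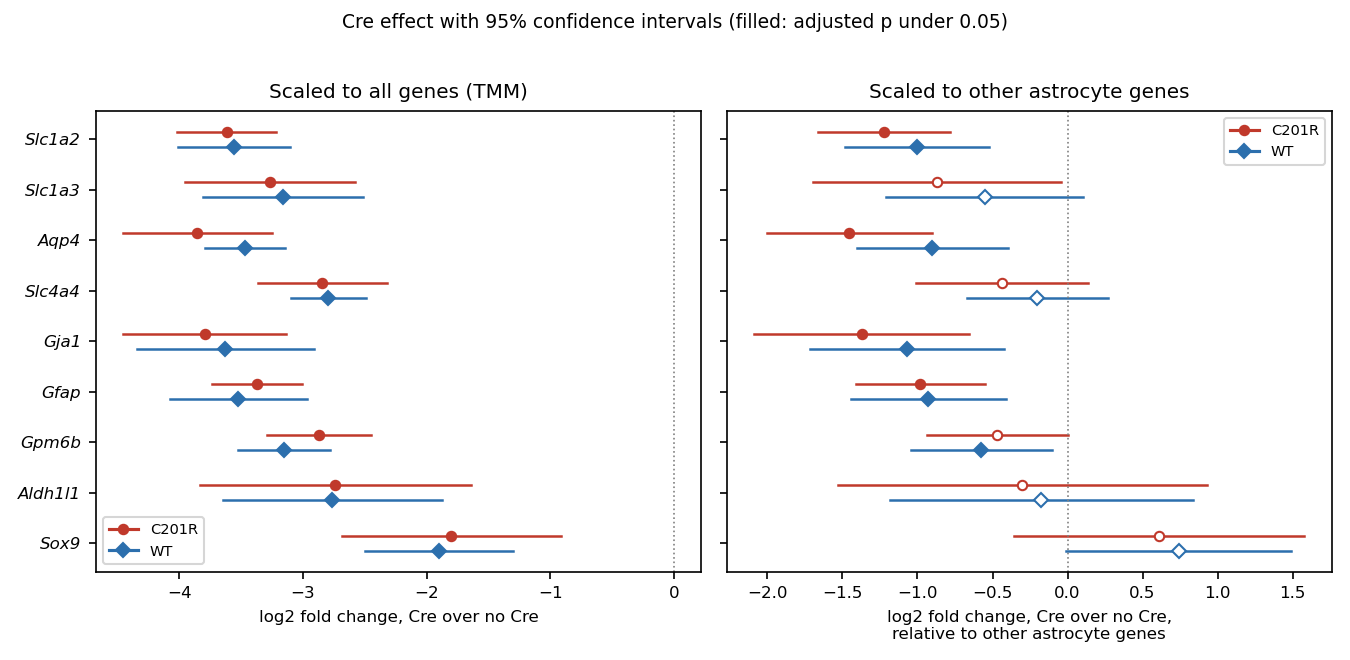
Log2 difference with Cre over without Cre for each of the 9 genes, in C201R and in wild-type mice, with 95% intervals from the edgeR fit. On the left the libraries are scaled by TMM and all 18 estimates lie below 0. On the right they are scaled by other astrocyte genes, and the estimates of all genes but Sox9 lie below 0 in both genotypes. Those of Aqp4, Gja1, Slc1a2 and Gfap are called in both. Those of Sox9 lie above 0 with intervals that include 0.

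Whether each gene fell more or less than the mean of other astrocyte genes was read on a second scale. There, the library sizes were replaced by the geometric mean of other astrocyte genes (17 genes in C201R and 18 in wild-type mice, such as Atp1b2, Hepacam and Slc6a11), none of which is among the 9. On this scale 4 of 9 genes were called lower in C201R mice, beside 0.984% of all tested genes, and 5 of 9 in wild-type mice, beside 1.58%. The median log2 difference of all genes on this scale was 2.46 in C201R and 2.51 in wild-type mice, and that of the 9 genes was -0.87 and -0.58. The 20 other astrocyte genes, from which the scale was built, had medians of -0.43 in C201R and -0.44 in wild-type mice. In C201R mice 3 of them were lower and 3 higher, and in wild-type mice 5 were lower and 4 higher. Of all genes, 75.5% were called higher on this scale in C201R mice and 77.6% in wild-type mice. Their highest estimates were 4.225 in C201R and 4.081 in wild-type mice. The typical gene of that list thus lay below 0 on this scale, and an estimate near those medians is that of a typical list gene. For other cells, 11 of 12 oligodendrocyte genes were lower on this scale in C201R mice and 9 of 12 in wild-type mice.

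Aqp4, Gja1, Slc1a2 and Gfap were the genes called in both genotypes. Relative to other astrocyte genes, Aqp4 differed by -1.46 ± 0.26 log2 units in C201R mice (edgeR adjusted p = 3.44e-05) and by -0.90 ± 0.24 in wild-type mice (adjusted p = 0.00175). Gja1 differed by -1.37 ± 0.34 log2 units in C201R mice (adjusted p = 0.00107) and by -1.07 ± 0.31 in wild-type mice (adjusted p = 0.0034). Slc1a2 differed by -1.22 ± 0.21 log2 units in C201R mice (adjusted p = 2e-05) and by -1.004 ± 0.231 in wild-type mice (adjusted p = 0.000448). The filament gene Gfap differed by -0.98 ± 0.20 log2 units in C201R mice (adjusted p = 0.000178) and by -0.93 ± 0.25 in wild-type mice (adjusted p = 0.00173). Gpm6b had -0.47 ± 0.23 log2 units in C201R mice (adjusted p = 0.0643) and was called in wild-type mice, with -0.58 ± 0.23 (adjusted p = 0.0249), and the difference between the genotypes was not tested on this scale.

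The remaining genes missed the threshold on this scale. Slc1a3 stood at -0.87 ± 0.40 log2 units in C201R (adjusted p = 0.0515) and at -0.55 ± 0.32 in wild-type mice (adjusted p = 0.114). Slc4a4 stood at -0.44 ± 0.28 log2 units (adjusted p = 0.159) and Aldh1l1 at -0.30 ± 0.59 (adjusted p = 0.66) in C201R mice. In wild-type mice Slc4a4 stood at -0.20 ± 0.23 log2 units (adjusted p = 0.425) and Aldh1l1 at -0.18 ± 0.48 (adjusted p = 0.752). Sox9 had positive estimates, 0.61 ± 0.46 log2 units in C201R mice (interval -0.36 to 1.58, adjusted p = 0.241) and 0.74 ± 0.36 in wild-type mice (interval -0.01 to 1.49, adjusted p = 0.0648). Without mouse 14003-1, 7 of 9 genes were called lower in C201R mice, with Slc1a3, Slc4a4 and Gpm6b added. Lower calls over all genes rose as well, from 141 to 357. Without mouse 14701-9, 5 of 9 were called lower in wild-type mice, beside 470 of all genes (226 in the main fit). Sox9 was called higher there, at 0.87 (edgeR adjusted p = 0.0152). In that fit 11350 genes were called higher in all, and the median of all genes was 2.59. The scale was also set by the median log2 ratio of the same reference genes. Sox9 was then called higher in both genotypes, at 0.99 in C201R mice (edgeR adjusted p = 0.043) and 1.03 in wild-type mice (adjusted p = 0.0167). Most genes were called higher too, 11471 of 14335 in C201R mice and 11430 of 14264 in wild-type mice. The medians of all genes were 2.84 and 2.78, and the Sox9 estimates lay below them. On this setting Gpm6b was no longer called in wild-type mice (-0.31, adjusted p = 0.263).

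Ratios of counts within a library need no scaling at all. Per 100 counts of Slc1a2, C201R mice with Cre held 3.26 counts of Sox9 at the median (range 2.87 to 8.36), and C201R mice without Cre held 0.995 (0.608 to 1.89). Wild-type mice with Cre held 3.54 (1.40 to 4.71), and wild-type mice without Cre held 0.953 (0.614 to 1.51). The C201R groups did not overlap in this ratio, and the wild-type groups overlapped narrowly. For Slc4a4 the medians were 21.3 per 100 Slc1a2 counts in C201R mice with Cre and 13.5 without Cre, and 27.1 in wild-type mice with Cre and 14.4 without Cre. Gpm6b had 27.3 and 17.6 in C201R mice with and without Cre, and 26.7 and 20.1 in wild-type mice. Slc1a3 had 2.50 and 1.99 in C201R mice, and 2.43 and 1.46 in wild-type mice. Aqp4 had 15.0 and 19.1 in C201R mice, and 17.2 and 16.5 in wild-type mice. These ratios rest on the same counts as the differences above and are not separate evidence.

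Most other astrocyte genes were lower with Cre as well. Of the 20 on the list behind the second scale, 18 were lower and 1 higher with Cre in C201R mice (median -2.83), and 19 were lower and 1 higher in wild-type mice (median -3.03). The pump subunit Atp1b2 fell by 2.92 ± 0.22 log2 units in C201R mice (edgeR adjusted p = 1.24e-08) and by 3.10 ± 0.23 in wild-type mice (adjusted p = 3.78e-08). The endfoot adhesion gene Hepacam fell by 3.16 ± 0.25 log2 units in C201R mice (adjusted p = 2.55e-08) and by 3.08 ± 0.24 in wild-type mice (adjusted p = 6.17e-08). The exception was Pla2g7, a phospholipase that hydrolyses platelet-activating factor, which was higher with Cre by 1.78 in C201R and by 1.46 in wild-type mice and was singled out after its values were seen. Of genes that astrocytes share with other cells, 8 of 15 were lower and 2 higher in C201R mice, and 10 of 15 lower and 2 higher in wild-type mice. The potassium channel Kcnj10 fell by 3.45 ± 0.17 log2 units in C201R (adjusted p = 4.23e-10) and by 3.68 ± 0.23 in wild-type mice (adjusted p = 1.3e-08). S100b and Clu were the 2 higher genes. S100b, a calcium-binding protein used as an astrocyte marker in the brain, was higher by 1.24 log2 units in C201R and by 1.01 in wild-type mice. Clu (clusterin) was higher by 1.99 log2 units in C201R and by 1.92 in wild-type mice. The endfoot anchoring list had 8 of 10 genes lower in C201R mice and 7 of 9 in wild-type mice. Of transcription factors of glia, 7 of 12 were lower and 1 higher in C201R mice, and 9 of 12 lower and 1 higher in wild-type mice. With library totals the higher genes in wild-type mice numbered 4 of 15 shared genes and 3 of 12 transcription factors of glia, with 9 and 7 lower. Of all 14264 genes, 6881 were then higher and 2441 lower. Counts of these transcription factors are of gene entries, and Zbtb20 and Glis3 have more than a single entry. Zbtb20 fell by 3.25 ± 0.20 log2 units in C201R mice and by 3.06 ± 0.21 in wild-type mice. Another Zbtb20 entry fell by 3.04 in wild-type mice and was not called there with library totals (-2.01, edgeR adjusted p = 0.117). Stat3 was the higher 1 in both genotypes, by 1.44 in C201R and by 1.24 in wild-type mice.

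Markers of other cells moved with Cre as well. All 12 oligodendrocyte markers were lower in each genotype (median -3.28 in C201R and -3.53 in wild-type mice). Of microglia markers 6 of 8 were lower in C201R mice and 7 of 7 in wild-type mice, and of endothelial and mural markers 10 of 11 in each. Of markers of oligodendrocyte precursors 6 of 7 were lower in each genotype, and of ependymal markers 2 of 4. Of markers of other neurons 6 of 12 were lower and 3 higher in C201R mice, and 8 of 12 lower and 2 higher in wild-type mice. With library totals 3 of these 12 were lower and 3 higher in C201R mice, beside 2284 lower and 5657 higher of 14335 genes. In wild-type mice 5 were then lower and 3 higher, beside 2441 and 6881 of 14264 genes. Cholinergic markers were higher, 9 of 9 in each genotype, beside 30.5% of genes called higher in C201R and 27.7% in wild-type mice. Summed over the 12 oligodendrocyte markers, the level was 588 to 882 CPM in C201R mice with Cre and 5296 to 8208 CPM without it, and 531 to 1162 CPM in wild-type mice with Cre and 5144 to 9183 CPM without it. No gene of these lists stood at 0 in all libraries, and their part in the values of the 9 genes was not tested.

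The 9 genes were then set beside relatives of their own gene families. The family list holds 22 genes, 20 of which were tested. In C201R mice 10 were lower and 4 higher with Cre, and in wild-type mice 12 were lower and 5 higher. With library totals 7 were lower and 6 higher in each genotype. Over all genes that setting gave 2284 lower and 5657 higher of 14335 in C201R mice. In wild-type mice it gave 2441 and 6881 of 14264. Slc1a1 (EAAC1), the neuronal glutamate transporter, stood at 33.8, 47.5 and 57.5 CPM in C201R mice with Cre and at 26.4, 33.9 and 52.1 CPM without Cre. Wild-type Slc1a1 levels were 26.1, 64.9 and 91.2 CPM with Cre and 24.4, 31.8 and 48.1 CPM without Cre. Its ranges overlapped in both genotypes. Its log2 difference was 0.49 ± 0.20 in C201R mice, which missed the threshold (edgeR adjusted p = 0.0506), and 0.82 ± 0.23 in wild-type mice (adjusted p = 0.00528). Per 100 counts of Slc1a1 there were 225 of Slc1a2 at the median in C201R mice with Cre and 4340 in C201R mice without Cre, and 190 in wild-type mice with Cre and 4320 in wild-type mice without Cre. Slc1a4 (ASCT1), which carries neutral amino acids, was higher with Cre in C201R mice (0.86 ± 0.31 log2 units, adjusted p = 0.0233) and was not called in wild-type mice (-0.25 ± 0.26, adjusted p = 0.417). With RLE scaling (the size factors of DESeq2) it was not called in C201R mice either (0.67, adjusted p = 0.0655).

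Gpm6a, the proteolipid of neurons, stood at 50.8, 64.5 and 74.8 CPM in C201R mice with Cre and at 66.2, 108 and 134 CPM without Cre. Wild-type Gpm6a levels were 41.0, 46.1 and 57.7 CPM with Cre and 80.1, 108 and 115 CPM without Cre. It fell by 0.57 ± 0.20 log2 units in C201R mice (edgeR adjusted p = 0.0218) and by 1.28 ± 0.14 in wild-type mice (adjusted p = 1.23e-06). Its ranges overlapped in C201R mice and did not overlap in wild-type mice. With library totals both calls were lost, at 0.01 log2 units in C201R mice (adjusted p = 0.978) and -0.36 in wild-type mice (adjusted p = 0.23). Per 100 counts of Gpm6a there were 47.6 of Gpm6b in C201R mice with Cre and 248 in C201R mice without Cre, and 71.9 in wild-type mice with Cre and 269 in wild-type mice without Cre. Among connexins, Gjb6 (connexin 30 of astrocytes, from the list of other astrocyte genes) fell by 3.32 log2 units in C201R mice and fell by 3.66 in wild-type mice. Gjb1 and Gjc3, which oligodendrocytes use, had log2 differences of -3.45 (Gjb1) and -3.05 (Gjc3) in C201R mice and of -3.21 (Gjb1) and -3.79 (Gjc3) in wild-type mice, all called lower. Gjd2 (connexin 36), the connexin of neurons, differed by 0.96 ± 0.51 log2 units in C201R mice, which was not called (adjusted p = 0.115), and was higher in wild-type mice by 1.36 ± 0.36 (adjusted p = 0.00415).

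Relatives of Slc4a4 had smaller or opposite estimates. Slc4a3, an anion exchanger, was higher with Cre by 0.97 ± 0.29 log2 units in C201R (edgeR adjusted p = 0.00816) and by 0.74 ± 0.25 in wild-type mice (adjusted p = 0.0194). Slc4a7, a bicarbonate cotransporter, fell by 1.80 log2 units in C201R and fell by 1.76 in wild-type mice. Slc4a8, a carrier of neurons, fell by 0.94 ± 0.23 log2 units in C201R and fell by 0.82 ± 0.17 in wild-type mice. Slc4a10 was not called in C201R mice (0.02 ± 0.28 log2 units, adjusted p = 0.965) and fell by 1.02 ± 0.20 in wild-type mice. With library totals Slc4a8 was not called in C201R mice (-0.32, adjusted p = 0.475), and in wild-type mice neither Slc4a7 (-0.80, adjusted p = 0.0819) nor Slc4a8 (0.12, adjusted p = 0.722) nor Slc4a10 (-0.07, adjusted p = 0.84) was called. Of the SOX factors, Sox10 of oligodendrocytes fell by 3.06 ± 0.31 log2 units in C201R and by 3.01 ± 0.28 in wild-type mice, and Sox8 fell by 2.17 ± 0.28 in C201R and fell by 2.28 ± 0.31 in wild-type mice. Of the intermediate filaments, Nes had log2 differences of -2.58 in C201R and -2.72 in wild-type mice and Vim of -2.47 in C201R and -2.67 in wild-type mice, all called lower. The neuronal filament gene Nefl was higher by 2.73 ± 0.18 log2 units in C201R and by 2.57 ± 0.25 in wild-type mice, and Prph by 4.86 ± 0.23 in C201R and by 3.37 ± 0.55 in wild-type mice.

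**Figure D3:**
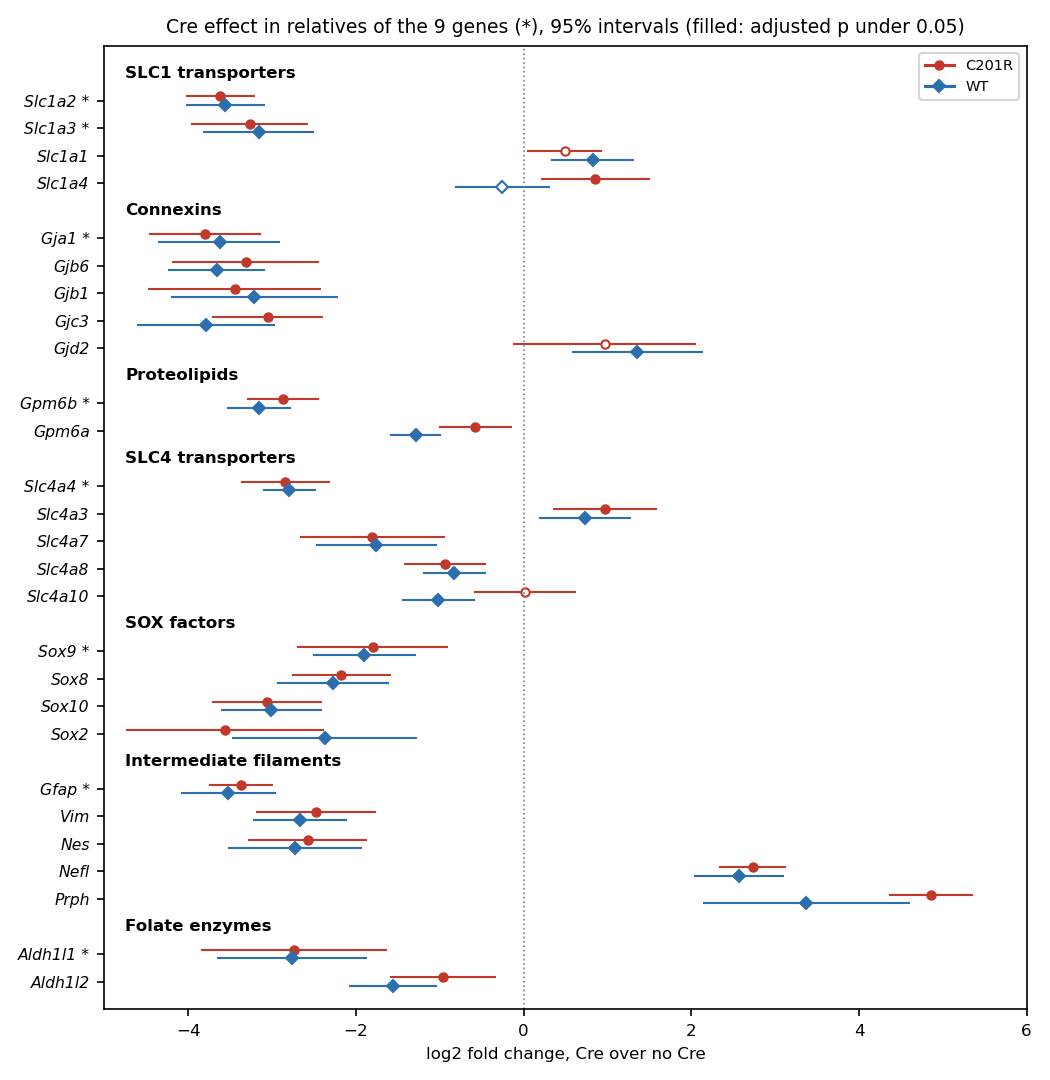
Log2 difference with Cre over without Cre for members of the set and their family relatives, in C201R and wild-type mice, with 95% intervals from the edgeR fit. Open symbols mark an adjusted p of 0.05 or more. Nefl, Prph, Slc4a3, Slc1a1 and Gjd2 have estimates above 0 in both genotypes, with an interval that includes 0 for Gjd2 in C201R mice, while Gpm6a and Slc4a8 lie below 0 in both and Slc4a10 in wild-type mice. Gjb1, Gjc3 and Sox10 have estimates of -3.01 or lower in each genotype.

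Levels can be ordered between genes only per transcript length, for which the deposited TPM (transcript abundance corrected for length, scaled to a fixed total) serve. Slc1a2 had the highest and Aldh1l1 the lowest median in each of the 4 groups. The median TPM of Slc1a2 was 19.2 in C201R mice with Cre, 29.4 in wild-type mice with Cre, 152 in C201R mice without Cre and 146 in wild-type mice without Cre. That of Aldh1l1 was 1.01, 0.750, 2.42 and 1.85 TPM in the same order of groups. Without Cre the order by median was Slc1a2, Gfap, Gpm6b, Aqp4, Slc4a4, Gja1, Slc1a3, Sox9 and Aldh1l1 in both genotypes. Most neighbours in these orders overlapped in range. Those that did not were Aqp4 over Gja1 in wild-type mice with Cre, Slc1a3 over Sox9 in both genotypes without Cre, and Slc1a2 over Gfap and Slc4a4 over Gja1 in wild-type mice without Cre. TPM rest on a transcript length that RSEM estimates per library, and for Slc1a2 that length ran from 4698 to 11600 bases among C201R mice with Cre.

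Without Cre no cell carries the tag, and the RNA is background from the whole cord. The comparison of C201R with wild-type mice there asks whether astrocyte genes differed with the mutation alone, and no gene of the 9 was called. edgeR called 0 of 9 genes and 0 of 14400 tested genes (0%) between C201R and wild-type mice without Cre, where 2 of 9 genes and 455 of all genes had an unadjusted p under 0.05, and DESeq2 called 0 of 9 genes and 2 of all genes. The median log2 difference of the 9 genes was 0.18, against -0.04 over all genes. Ranges overlapped for all 9 genes, beside 0.174% of genes whose ranges did not.

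Gfap and Slc1a3 were the 2 genes with an unadjusted p under 0.05. Gfap stood at 196, 233 and 242 CPM in C201R mice and at 129, 162 and 212 CPM in wild-type mice without Cre. All 6 C201R libraries were above the wild-type median and 5 of 6 above the highest wild-type library. Its log2 difference was 0.43 ± 0.16 (interval 0.10 to 0.76, edgeR adjusted p = 1). Slc1a3 stood at 23.3, 29.99 and 38.7 CPM in C201R mice and at 17.7, 21.4 and 27.8 CPM in wild-type mice without Cre. The pattern over libraries was that of Gfap, with 6 of 6 C201R libraries above the wild-type median and 5 of 6 above the highest wild-type library. Its log2 difference was 0.48 ± 0.21 (interval 0.05 to 0.91, edgeR adjusted p = 1). With a single library left out in turn, the estimate stayed between 0.37 and 0.50 for Gfap and between 0.40 and 0.56 for Slc1a3, and neither was called. Relative to other astrocyte genes (19 reference genes), Gfap had a log2 difference of 0.35 and Slc1a3 of 0.42. On that scale edgeR called 0 of 9 genes, 0 of them under an unadjusted p of 0.05, and 0% of all genes, with 531 of all genes under the unadjusted 0.05.

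The other 7 genes had intervals that included 0. Slc1a2 had a log2 difference of 0.08 (interval -0.25 to 0.41), Aqp4 of 0.26 (-0.12 to 0.63), Gja1 of 0.17 (-0.26 to 0.59) and Sox9 of 0.18 (-0.38 to 0.74). For Aldh1l1 it was 0.26 (-0.53 to 1.06), for Slc4a4 -0.10 (-0.43 to 0.22) and for Gpm6b -0.17 (-0.50 to 0.16). All of these but that of Aldh1l1 lie within 1 log2 unit of 0, and each leaves room for smaller differences in either direction.

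Genes that mark reactive astrocytes in mice were read from 3 lists, which hold genes shared by several forms of reactivity (pan-reactive), genes of the inflammatory form called A1 and genes of the ischaemic form called A2. The lists hold 12 pan-reactive, 11 A1 and 12 A2 genes, and those with too few counts to pass the filter were not tested. edgeR called 0 of 8 pan-reactive, 0 of 10 A1 and 0 of 8 A2 genes between C201R and wild-type mice without Cre. DESeq2 called 0 in each list. Under an unadjusted p of 0.05 there were 0 pan-reactive, 0 A1 and 1 A2 gene. The list medians were 0.07, 0.08 and -0.35. Serpina3n, the best known pan-reactive gene, ranged from 6.49 to 74.4 CPM with a median of 39.8 CPM in C201R mice, and from 10.9 to 88.1 CPM with a median of 23.8 CPM in wild-type mice. Its wide spread over mice leaves a log2 difference of 0.09 ± 0.62. Vim, the filament vimentin, stood at 20.3, 27.8 and 55.1 CPM in C201R mice and at 18.4, 27.5 and 38.3 CPM in wild-type mice (0.21 ± 0.24 log2 units). H2-D1, a class I histocompatibility gene of the A1 list, differed by 0.10 ± 0.31 log2 units, and Serping1, a complement inhibitor of that list, by 0.38 ± 0.35. The A2 gene under the unadjusted threshold was Clcf1, a cytokine, with a lower value in C201R mice (-1.29 ± 0.56 log2 units, adjusted p = 1) at 1.40 to 3.52 CPM in C201R mice and 1.39 to 14.8 CPM in wild-type mice. Tm4sf1 of the A2 list differed by -0.12 ± 0.47 log2 units and S100a10 of that list by -0.33 ± 0.45 log2 units. With Cre against without Cre, 3 of 9 pan-reactive genes were lower and 2 higher in C201R mice, beside 26.3% of genes called lower and 30.5% called higher. In wild-type mice 6 of 9 were lower and 3 higher, beside 32.8% and 27.7%. With library totals 4 were lower and 3 higher there, beside 2441 and 6881 of 14264 genes. Hspb1, a small heat shock protein, was higher with Cre by 3.90 log2 units in C201R and by 3.78 in wild-type mice, and Serpina3n by 1.94 in C201R and by 1.97 in wild-type mice.

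**Figure D4:**
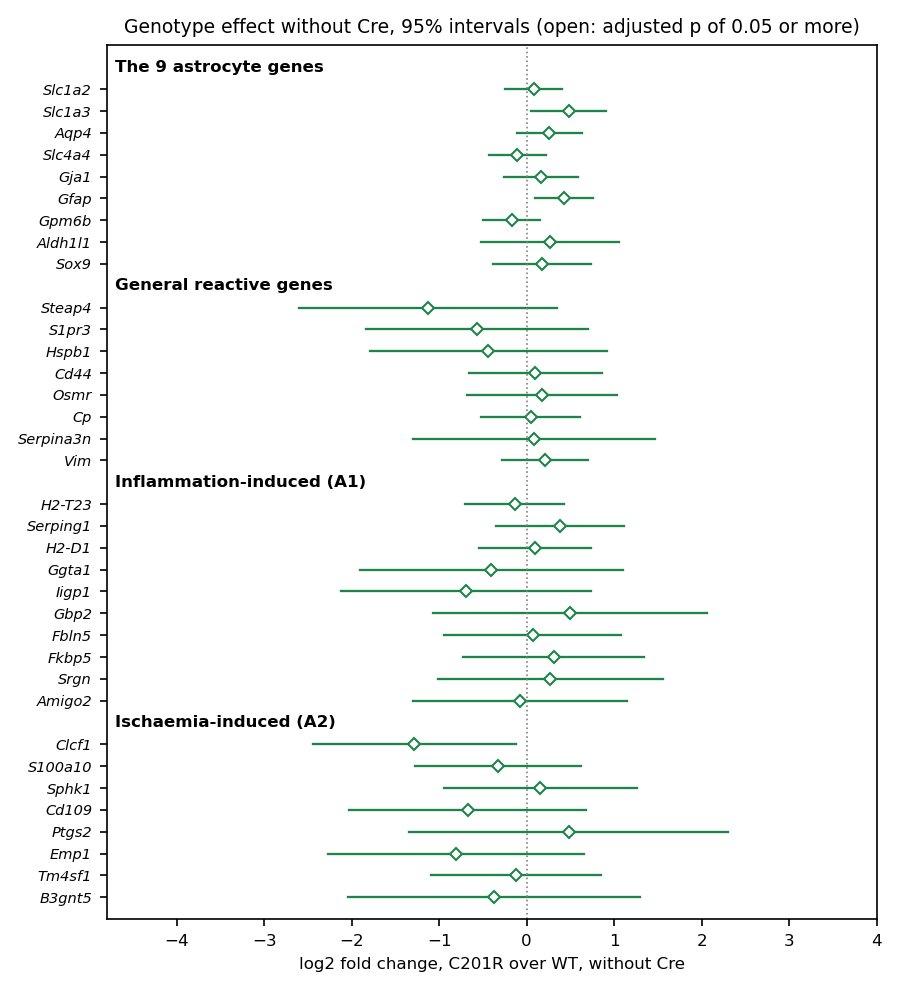
Log2 difference of C201R over wild-type mice without Cre for the 9 astrocyte genes (top) and the tested genes of the pan-reactive (headed general reactive), A1 and A2 lists, with 95% intervals from the edgeR fit. All symbols are open, since no gene passed the adjusted threshold, and the intervals leave out 0 for Slc1a3, Gfap and Clcf1 only.

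Markers of other cells and the other astrocyte lists were also read between C201R and wild-type mice without Cre, where the median log2 difference of all genes was -0.04. Of 8 tested cholinergic markers 0 were called by edgeR and 1 by DESeq2, and 4 had an unadjusted p under 0.05, with a median of -1.04. Their summed level ran from 68.9 to 132 CPM in C201R mice and from 103 to 419 CPM in wild-type mice. Of 10 microglia markers 0 were called by either tool and 1 had an unadjusted p under 0.05 (median 0.42), with a summed level of 59.8 to 157 CPM in C201R mice and 56.7 to 120 CPM in wild-type mice. The 12 oligodendrocyte markers had a median of 0.04, and 0 of them were called by either tool, with 1 under an unadjusted p of 0.05. The other lists of astrocyte genes had 0 called genes by either tool as well. Medians were 0.11 for the 20 other astrocyte genes and 0.10 for the 15 shared genes. They were 0.15 for the 10 endfoot genes and -0.06 for the 12 entries of glial transcription factors. No listed marker stood at 0 in all libraries. The part of these values in the Gfap and Slc1a3 values was not tested.

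**Figure D5:**
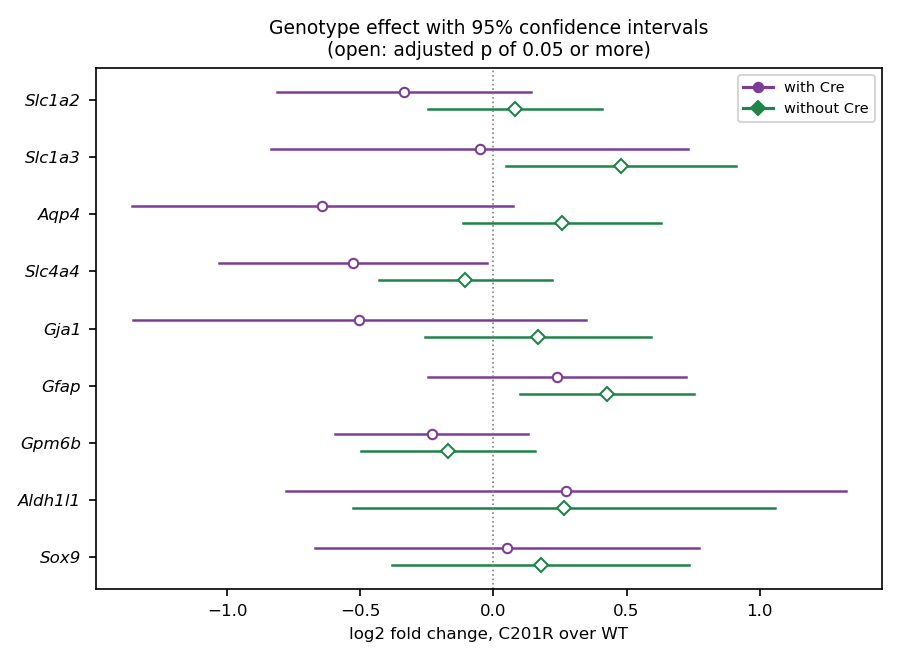
Log2 difference of C201R over wild-type mice for each of the 9 genes, with Cre (circles, upper row of each gene) and without Cre (diamonds, lower row), with 95% intervals from the edgeR fit. Open symbols mark an adjusted p of 0.05 or more. Without Cre the intervals of Gfap and Slc1a3 lie above 0 before adjustment, and with Cre that of Slc4a4 lies below 0 before adjustment, and no gene passed the adjusted threshold in either.

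With Cre, the counts of the 9 genes that remain can hold background RNA and RNA of the tagged cells. The part of each was not tested. Between C201R and wild-type mice with Cre, edgeR called 0 of 9 genes beside 4.11% of 14634 genes. Under an unadjusted p of 0.05 were 1 of the 9 genes and 2687 of the 14634, so the 1 gene does not stand out. DESeq2 called 0 of 9, with 1 adjusted p missing. The median log2 difference was -0.23, against -0.01 over all genes, and ranges overlapped for all 9 genes, beside 2.55% of genes whose ranges did not. Slc4a4 was the gene of the 9 under the unadjusted threshold, at -0.53 ± 0.24 (edgeR adjusted p = 0.245). All 6 C201R libraries with Cre lay below the wild-type median and 4 of 6 below the lowest wild-type library. Gfap differed by 0.24 ± 0.23 log2 units, Slc1a3 by -0.05 ± 0.37, Slc1a2 by -0.34 ± 0.22, Gja1 by -0.50 ± 0.40, Gpm6b by -0.23 ± 0.17, Sox9 by 0.05 ± 0.34 and Aldh1l1 by 0.27 ± 0.49.

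Aqp4 had the lowest estimate, -0.64 ± 0.34 log2 units (interval -1.36 to 0.07, edgeR adjusted p = 0.327), and it differed by library series. In series 1 the 3 C201R mice with Cre stood at 2.21 to 10.4 CPM and the 2 wild-type mice with Cre at 21.6 to 27.4 CPM, a log2 difference of -1.63. In series 2 the 3 C201R mice with Cre stood at 18.3 to 28.6 CPM and the 4 wild-type mice with Cre at 20.8 to 27.2 CPM, a log2 difference of 0.03. The 3 lowest libraries were thus the C201R libraries of series 1, and whether the series differ was not tested.

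Single listed genes passed between genotypes with Cre, at shares to be read beside the 4.11% of all genes. Of the 20 other astrocyte genes, Aldoc was called, higher in C201R mice (0.58 ± 0.15 log2 units, edgeR adjusted p = 0.0428). Of the shared genes, Cst3 was higher (0.63, adjusted p = 0.0403) and Glul lower (-0.56, adjusted p = 0.0343). The glial transcription factors Nfia and Nfib, which neurons also express, were lower (-1.03, adjusted p = 0.0203 and -0.70, adjusted p = 0.0412). Of the families, 2 genes were higher and 1 lower. Aldh1l2, the mitochondrial relative of Aldh1l1, stood at 7.38 to 10.5 CPM in C201R mice with Cre and at 3.62 to 5.54 CPM in wild-type mice with Cre, with no overlap (1.00 ± 0.19 log2 units, adjusted p = 0.00974). Slc1a4 was higher by 1.04 ± 0.27 log2 units (adjusted p = 0.0412), and Nefl fell by 0.63 ± 0.14 (adjusted p = 0.0205). Of the reactive lists, Fbln5 of the A1 list was higher by 1.75 ± 0.22 log2 units (adjusted p = 0.000364). With library totals none of these 9 genes was called, with adjusted p from 0.0998 (Fbln5) to 0.639 (Aldoc), and their directions were the same. In the same comparison 4 of 9 cholinergic markers were lower in C201R mice, with 5 under an unadjusted p of 0.05, and with library totals 0 were called. Of 12 markers of other neurons 1 was higher in C201R mice, with 7 under an unadjusted p of 0.05 and a median of 0.36, and with library totals 0 were called. The part of these neuronal values in the genes named here was not tested.

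The change with Cre was also compared between genotypes. In the interaction of genotype and Cre, edgeR called 0 of 9 genes beside 0.13% of 16109 genes, and DESeq2 called 0 of 9. Under an unadjusted p of 0.05 were 1 of the 9 genes and 1462 of the 16109, so the 1 gene does not stand out. The gene of the 9 under the unadjusted threshold was Aqp4. Its difference with Cre differed between C201R and wild-type mice by -0.88 ± 0.39 on the log2 scale (interval -1.68 to -0.08, edgeR adjusted p = 0.489). Gja1 had -0.68 (-1.59 to 0.22), Slc1a3 -0.54 (-1.36 to 0.29), Slc4a4 -0.44 (-1.01 to 0.12), Slc1a2 -0.43 (-0.97 to 0.10) and Gfap -0.18 (-0.77 to 0.41). The estimates of Sox9, Gpm6b and Aldh1l1 were -0.13, -0.08 and 0.10.

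Genes whose levels were most like the mean of the 9 genes came from oligodendrocytes as well as astrocytes. Over the 24 libraries, Pearson's r with the mean log2 level was highest for Mobp (0.992), Kcnj10 (0.989), Mbp, Cnp and Plekhb1 (0.988 each) and Trf (0.987), among 6596 genes with a mean of at least 10 CPM. Those libraries fall into groups with and without Cre, so these values largely describe the difference between groups. After the group means were taken away, the highest were Cldn11 (0.784), Enpp2 (0.754), Kcnj16 (0.740), Sclt1 (0.728), Cnp (0.723) and Cxcl12 (0.712). The 9 genes themselves had values of 0.303 (Sox9) to 0.755 (Gja1) on that measure, each counted within the mean. For single genes the nearest were Kcnj10 for Gfap (0.891), Mobp for Slc1a2 (0.812), Cxcl12 for Slc1a3 (0.847), P4ha3 for Gja1 (0.822) and Slc6a5 for Gpm6b (0.860). For Aqp4 it was Alkbh8 (0.925), for Slc4a4 Onecut2 (0.809), for Sox9 Itch (0.737) and for Aldh1l1 Dhdds (0.714). Depth and mitochondrial share vary between the libraries, and all genes of a library have the same scaling. These values are thus descriptions of 24 libraries.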

How the data were processed

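RNA was measured in 24 RiboTag pulldowns. The deposited tables hold expected counts and TPM per gene, made by the authors with Bowtie2 2.2.0 and RSEM 1.2.12, per the submitters' processing notes. A build is not given in the sources used here, and promoter coordinates are those of RefSeq. RSEM divides reads among similar genes. Expected counts were rounded to whole numbers. The deposited TPM were used only to order genes by level.

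Pairwise comparisons used the 12 libraries of their 2 groups, and the pooled and interaction fits used all 24, with edgeR 4.0.16 (R 4.3.3, limma 3.58.1): filterByExpr, TMM, robust quasi-likelihood F test, library series as a term, and Benjamini-Hochberg adjustment over all genes tested. Printed CPM use 1 TMM scaling over all 24 libraries, and fold changes come from the fits. Ranges count genes with a mean of at least 5 counts. For the second scale, library sizes were the geometric mean of the counts (plus 0.5) of other astrocyte genes with a mean of at least 5 CPM. The scripts were tested on simulated data. Likeness used log2(CPM + 0.5).

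The 9 genes and the lists were chosen with earlier results of these data known. Named are the 9 genes, from each list up to 4 called genes with the smallest p or else the 2 most abundant, family relatives, Chat and Gars, and the genes most like the 9. Where a few list genes were called in 1 direction, those are named too. Alternatives were RLE scaling, library totals, mitochondrial genes and Gm26924 left out, no filter, DESeq2 1.42.0, no series term, a replicate block by the first digits of the mouse number (the prefix), series 2 alone, the median of log2 ratios for the second scale, leaving out both mice 14003-1 and 14701-9, and leaving out each library. Series 1 alone, scaling the genotype comparison with Cre to other astrocyte genes, and leaving out mouse 14003-1 or 14701-9 on the second scale were added after the data were seen. Every mouse had its own number, and the labels do not say whether mice were littermates or processed together. Some listed genes are counted in their lists and are not reported here one by one.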

Additional observations from a re-analysis of the deposited data

Results flagged for a closer look

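Of 48 sets of 6 libraries (9 genes, depth, mitochondrial share and Gm26924 share in 4 groups), 12 held a library far from the other 5, with a gap to its neighbour above Dixon's critical value as a share of the whole range. By chance about 1 in 20 such sets would hold one, and the sets share libraries. Wild-type mouse 14701-9 with Cre was highest for Slc1a3 at 7.90 CPM (others 1.94 to 3.38), for Gja1 at 10.95 CPM (2.26 to 5.08) and for Gpm6b at 57.7 CPM (29.6 to 36.6). The same library had the highest mitochondrial share of its group, 17.1% (others 1.24% to 3.67%), and the highest Gm26924 share, 30.8% (7.45% to 11.9%). C201R mouse 14003-1 with Cre was highest for Sox9 at 10.15 CPM (others 2.96 to 4.32), with the lowest depth, 12.1 M expected counts (M, mega; others 18.0 to 21.03), and the highest mitochondrial share, 15.8% (3.03% to 6.45%). C201R mouse 14003-2 without Cre was lowest for Gpm6b at 152 CPM (others 250.9 to 298) and had the highest Gm26924 share, 7.60% (1.595% to 3.55%). C201R mouse 14004-8 without Cre had the lowest mitochondrial share, 35.2% (others 44.8% to 49.6%). Wild-type mouse 14702-5 without Cre had the lowest depth, 9.14 M (others 12.5 to 13.4). The part of depth and composition in the gene values was not tested.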

How the results depend on the processing

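Of 1781 values under alternatives, 1733 were graded the same as in the main fits, 28 weaker, 20 stronger and 0 reversed. A sign change was graded reversed only where the gene was called in the main fit or the alternative. Sign changes of genes called in neither are among the values graded the same. These values mix calls of single genes with counts of called genes per comparison. A count was graded by its size and has no threshold, so a weaker or stronger grade need not be a lost or gained call. For all genes called between genotypes with Cre, 3 of 11 alternatives were graded the same, and 3 of 12 fits with a library left out. The 9 genes stayed called lower with Cre in both genotypes under all 9 alternatives and with each library left out. Relative to other astrocyte genes, the prefix as a replicate block left 2 of 9 genes called in wild-type mice in place of 5, without Aqp4 (adjusted p = 0.0539), Gja1 (adjusted p = 0.0742) and Gpm6b (adjusted p = 0.127), and leaving out mouse 14003-1, chosen after seeing the data, left 7 called in C201R mice in place of 4. Over all genes, lower calls on this scale went from 226 to 82 with the block in wild-type mice. Without mouse 14003-1 they went from 141 to 357 in C201R mice. The cause was not tested. Across groups, mice of the same prefix did not deviate together more than others (median r 0.032 over 40 pairs, against 0.024 over 176 other pairs). The prefix was not used to pair samples in the main fits. Library series, depth and composition also enter this measure, so it cannot exclude pairing. The block called 9 of 9 genes for each Cre comparison and 0 of 9 for each genotype comparison, and moved Aldh1l1 in C201R mice to -2.09.

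Counts over all genes moved more. Between genotypes with Cre, 601 called genes (266 lower, 335 higher) became 32 (8 and 24) with library totals, 1344 with DESeq2, 291 without the series term, 75 (15 and 60) with the block, 1370 (822 and 548) in series 2, 1950 without mice 14003-1 and 14701-9, 1 in series 1 and 95 (12 and 83) scaled to other astrocyte genes, and 170 to 936 with a library left out. The interaction, 21, became 1, 115 and 6 with library totals, DESeq2 and the block, 43 without the 2 mice, and 11 to 37 with a library left out. Without Cre, 0 became 6 without a filter, 2 with DESeq2 and 1 with the block. Library totals gave 2441 lower and 6881 higher genes with Cre in wild-type mice (4682 and 3955 with TMM), 2284 and 5657 in C201R mice (3775 and 4370), and 3848 and 7403 pooled (5993 and 5328). The pooled fit without a filter gave 9450 and 5465. RLE moved the C201R median of all genes to -0.12 from 0.07.

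Low counts limit Aldh1l1, Gja1 and Aqp4 in libraries with Cre, whose lowest values rest on 7, 7 and 12 expected counts. Uncalled estimates changed sign under some settings, such as Aqp4 between genotypes with Cre (-1.63 in series 1, 0.03 in series 2), so no direction is drawn from them. Reads are not independent molecules.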

Other observations

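The mean transcript length that RSEM assigned to Gpm6b, which reflects the mix of its transcript forms, was 3493 to 4439 bases in C201R mice with Cre and 4337 to 4536 bases in C201R mice without Cre. In wild-type mice it was 3582 to 4371 bases with Cre and 4252 to 4589 bases without Cre. The medians were 4344 and 4444 bases in C201R mice with and without Cre, and 3983 and 4424 bases in wild-type mice with and without Cre. Aqp4, Gja1 and Sox9 had 1 fixed length in all libraries (5082, 3105 and 4135 bases). The lengths were not tested.

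In the libraries without Cre, the count ratio of Gfap to Slc1a2 was 14.9 per 100 at the median in C201R mice (range 12.3 to 17.2) and 12.3 per 100 in wild-type mice (7.91 to 15.7). With Cre it was 21 per 100 in C201R mice (12.7 to 27.4) and 12.9 in wild-type mice (9.02 to 15.5). The ranges overlapped in both pairs.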
